A study of Mus musculus with 12 samples.

Results

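Ubiquitin conjugating enzymes and deubiquitinases were followed in mouse oocytes across the pubertal transition. The members were all genes of the count table whose symbol began with Ube2, or with Usp, Uchl, Otud or Otub followed by a digit, which gave 109 of 24562 genes. They comprised 38 genes of the UBE2 family, 56 of the USP family, 5 of the UCH family and 10 of the OTU family. Because the rule used the symbol alone, it also took in the pseudogene Ube2d-ps, the antisense RNA Uchl1os, the Rab GTPase activating protein Usp6nl and Ube2cbp, which binds E2 enzymes and is of the E3 type. The RNA came from 12 pools of 18 to 45 denuded oocytes at the germinal vesicle stage, taken from antral follicles of ovaries that had received no hormone stimulation. All animals were CD-1 mice, an outbred strain without an engineered allele. There were 3 pools in each of 4 cohorts, namely postnatal day (PND) 13, PND 40 and, at PND 16, small and large mice divided by body weight. Following the study, PND 16 large and PND 40 were taken as competent and PND 13 and PND 16 small as non-competent, so the comparison of competence set 6 pools against 6. Competence is thus a label of the cohort and was not measured in the oocytes sequenced. A competent cohort can hold oocytes that are not competent. At PND 16 the study tied weight to competence in few mice, without showing those data. Each cohort drew on 3 mice and its pools were made independently, so p-values measure the spread between these pools.

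Ubiquitin is attached to proteins by a relay in which an E1 enzyme activates it, an E2 conjugating enzyme carries it and an E3 ligase selects the substrate. The E2 often decides which chain linkage is built, and deubiquitinases trim or remove ubiquitin. In oocytes the pathway is known for the anaphase promoting complex (APC/C), which acts in prophase arrest and in the meiotic divisions.

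The pools held 17671193 to 27418358 counts each, and levels are counts scaled to library size with TMM factors, in the unit CPM. A gene was called when its adjusted p was at most 0.05 over the 13943 genes tested and its change was at least 1.5-fold, by the quasi-likelihood test of edgeR with Benjamini-Hochberg adjustment. The 15 oocyte markers summed to 19740 to 26940 CPM. All 15 granulosa and cumulus markers were detected too, with sums of 401 to 785 CPM in the non-competent and 402 to 537 CPM in the competent pools. Serpine2 alone held 199 to 270 CPM in non-competent and 224 to 331 CPM in competent pools, a large part of each sum. Within the non-competent pools Inha ran from 2.34 to 143 CPM and Gja1 from 1.37 to 128 CPM, a wider spread than that of the sums. In competent pools they held 11.4 to 20.7 and 13.6 to 35.0 CPM. The highest sums were in replicates 1 and 3 of PND 13 and replicate 2 of PND 16 small. The granulosa hormone gene Amh averaged 17.7 CPM (0.389 to 33.5 CPM) in non-competent against 5.26 CPM (2.82 to 10.1 CPM) in competent pools. Serpine2 (241 against 292 CPM) and Cyp19a1 (17.5 against 19.3 CPM) had higher means in competent pools, and the other markers of the list had lower ones. Theca and stroma markers summed to 6.13 to 33.2 CPM, and all 3 haemoglobin genes of the blood list were at 0 counts in every pool.

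Most of the members were detected. Of the 109 members, 99 passed the filter on low counts, which a gene can pass by its level in a single cohort. Otud6a, Ube2d2b, Ube2dnl1, Ube2dnl2, Ube2l6 and the Y-linked Usp9y had at most 3 counts in any pool, while Ube2ql1, Usp17la, Usp17ld and Usp18 had more but did not pass the filter. The members together took 1.73% to 1.83% of the counts of a pool. Their summed level was 16191 to 16932 CPM at PND 13, 17454 to 18614 CPM at PND 16 small, 17827 to 19040 CPM at PND 16 large and 17880 to 17970 CPM at PND 40. On this scale the 3 pools of PND 13 lay below the other 9. As a share of counts they did not stand apart, at 1.73% to 1.75% against 1.73% to 1.78% at PND 16 small. In pools of cells, fewer cells that hold an RNA and less of it per cell cannot be told apart. Levels are also relative to the other RNA of a pool, so a fall or rise need not be one in the amount per oocyte. The study measured larger oocytes in older mice than in the youngest, and RNA per oocyte was not measured here.

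Levels of different genes were compared per kilobase of exon. On this scale Uchl1, a ubiquitin C-terminal hydrolase abundant in neurons and germ cells, stood above all other members at 1647 CPM per kb over the 12 pools. It was followed by Usp19, a deubiquitinase with a form anchored in the endoplasmic reticulum, at 271 CPM per kb and by the X-linked Usp9x at 218 CPM per kb. Usp7, known for acting on the p53 regulator Mdm2, had 178 CPM per kb and Usp46 had 144 CPM per kb. Ube2g1 was the highest of the conjugating enzymes at 127 CPM per kb. Ube2d3, Usp28, Ube2t and Ube2k completed the leading 10 at 106, 99.9, 81.2 and 81.04 CPM per kb, and all 10 were at or above the 95.5 percentile of the genes tested. On the CPM scale, 14.6% of the members' summed level came from Usp9x, 11% from Uchl1 and 8.1% from Usp19. Uchl1 shares 244 exon bases with the antisense Uchl1os, and the strand setting of counting is not known, so its counts may be affected there.

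**Figure D1:**
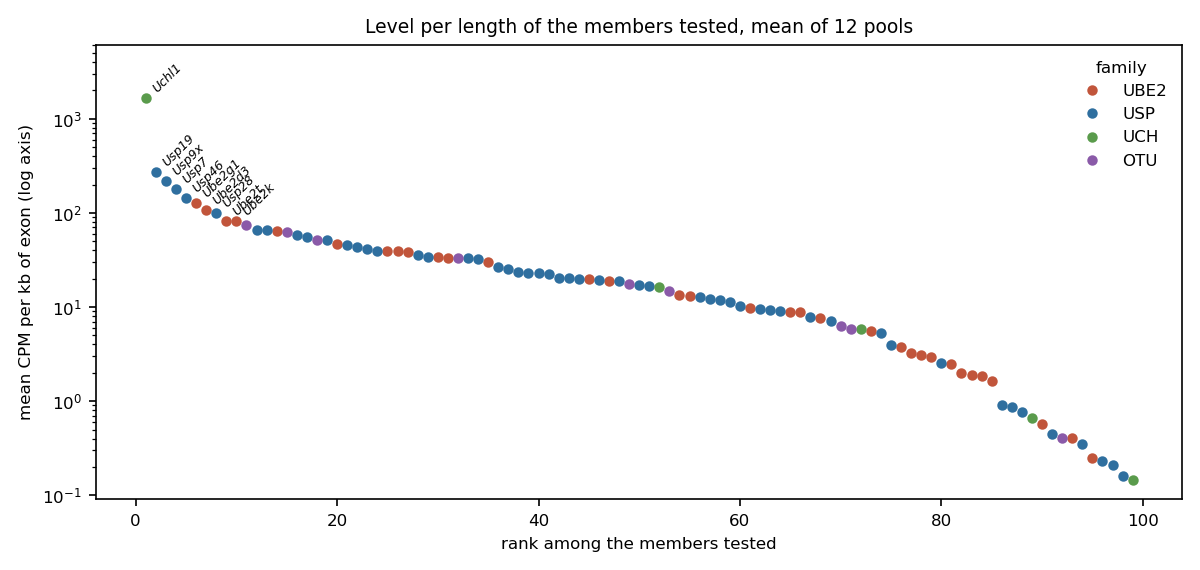
Mean level of the 99 members tested over the 12 pools, in CPM per kb of exon on a log axis, against their rank, with points coloured by family. Uchl1 at 1647 CPM per kb stands apart from the next member, Usp19 at 271 CPM per kb.

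None of these 10 abundant members was called in the comparison of competence. Uchl1 measured 1700, 2146 and 1940 CPM at PND 13, 1956, 1687 and 1770 CPM at PND 16 small, 2204, 2040 and 2045 CPM at PND 16 large and 2006, 1913 and 1861 CPM at PND 40. The groups overlapped (log2 0.11 ± 0.07, adjusted p = 0.261). Usp9x (0.13 ± 0.09, adjusted p = 0.299) and Usp7 (0.11 ± 0.09, adjusted p = 0.376) did not pass the test either. Usp19 (0.19 ± 0.06, adjusted p = 0.0259), Usp46 (0.30 ± 0.09, adjusted p = 0.0207), Ube2g1 (0.26 ± 0.06, adjusted p = 0.00464), Usp28 (0.29 ± 0.07, adjusted p = 0.00725), Ube2t (0.37 ± 0.06, adjusted p = 0.000544) and Ube2k (0.24 ± 0.06, adjusted p = 0.0103) passed the adjusted p with a higher level in competent oocytes, but under 1.5-fold. Ube2d3 (-0.23 ± 0.06, adjusted p = 0.00924) passed it with a lower level, also under 1.5-fold.

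In the comparison of competence 10 of the 99 members tested were called, 1 higher and 9 lower in competent oocytes, a share of 10.1%. Over all genes 15% were called, 3.78% higher and 11.2% lower. Without the fold criterion 40 members passed, 19 higher and 21 lower, against 30.7% of all genes. The median absolute log2 fold change was 0.23 over the members and 0.30 over all genes. The CPM of the competence groups did not overlap for 24 members, against 14.7% of all genes. By family, 3 of 33 UBE2, 6 of 52 USP, 1 of 9 OTU and 0 of 5 UCH genes tested were called, and 1 UCH gene had an adjusted p of at most 0.05.

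**Figure D2:**
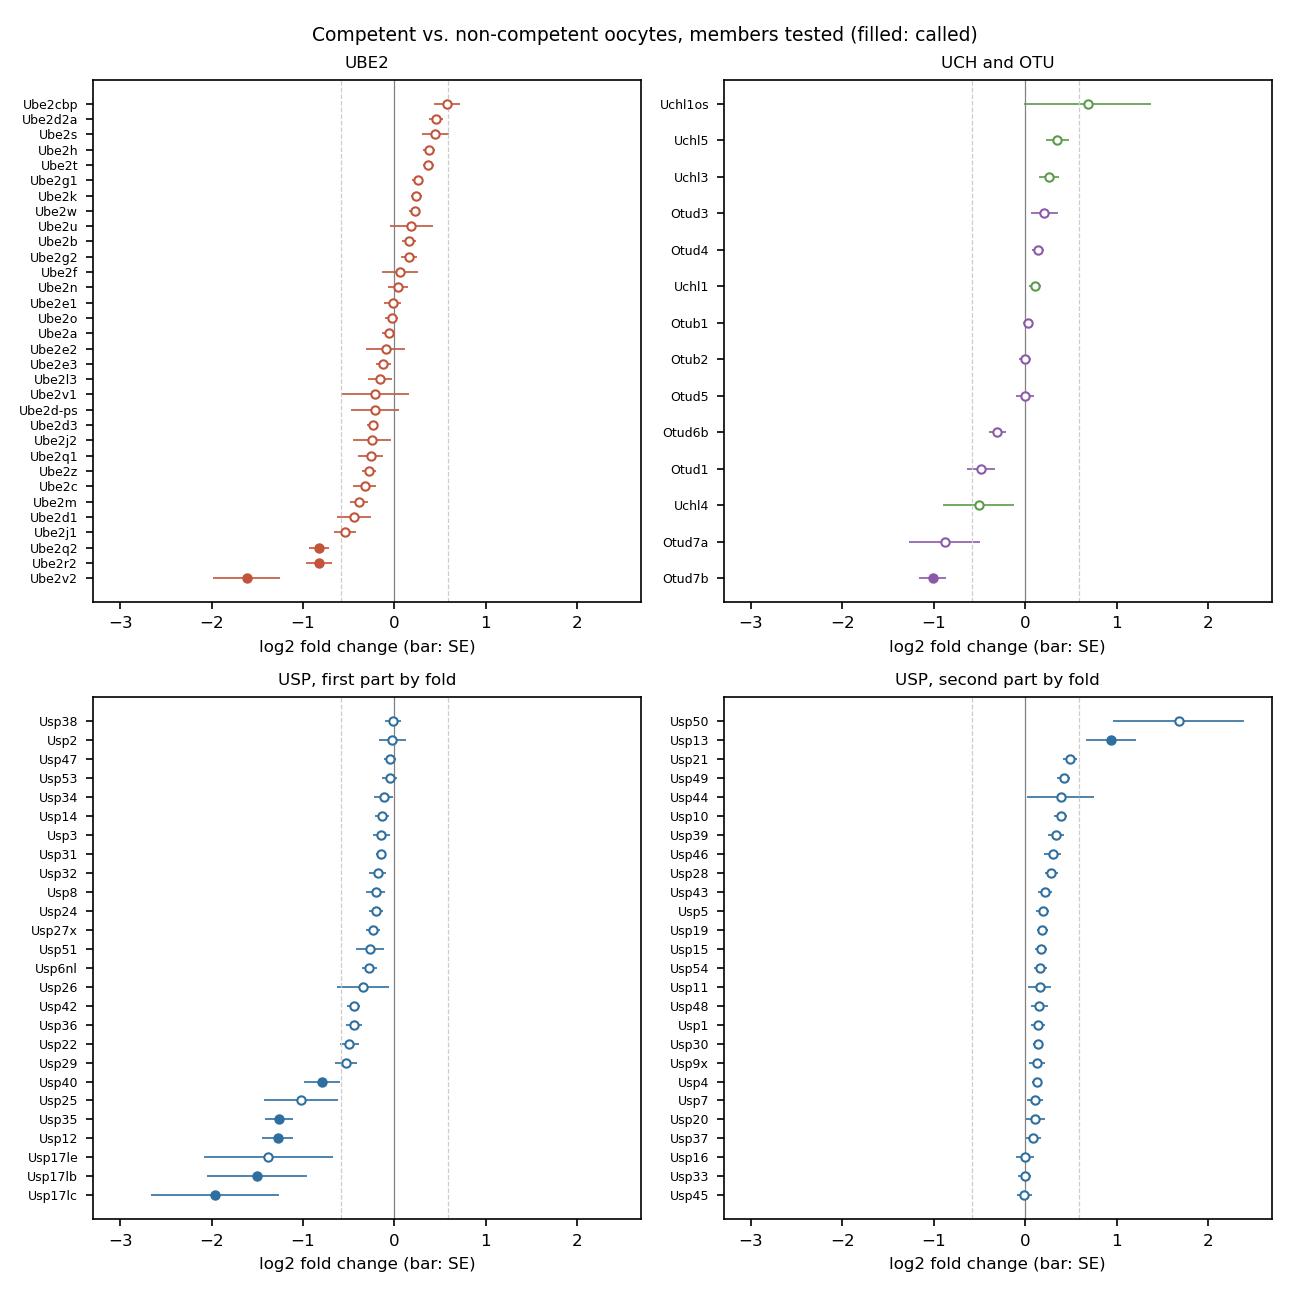
Log2 fold change of competent over non-competent oocytes (horizontal axis, bars of 1 SE) for the members tested, except 1 not reported here, in panels by family and ordered by size. Filled points are the 10 members called and dashed lines mark a 1.5-fold change, and most open points lie between the lines.

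The upstream bases of 4 called genes are shown to place their RNA changes beside the sequence at their starts. They come from the RefSeq promoter table of build GRCm38.p6, are written 5′ to 3′ on the strand of the gene, and lie within 250 bases before the RefSeq start without bases covered by an annotated exon. Capitals mark GGGCGG (the GC box) and TATAAA (the TATA box) on either strand, and matches can overlap.
Usp12, chr5:146795007-146795206, minus strand: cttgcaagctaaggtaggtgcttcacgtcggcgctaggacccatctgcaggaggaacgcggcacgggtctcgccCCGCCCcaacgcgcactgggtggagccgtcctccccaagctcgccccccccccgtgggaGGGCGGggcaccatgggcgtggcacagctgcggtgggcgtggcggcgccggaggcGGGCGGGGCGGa
Usp35, chr7:97332110-97332326, minus strand: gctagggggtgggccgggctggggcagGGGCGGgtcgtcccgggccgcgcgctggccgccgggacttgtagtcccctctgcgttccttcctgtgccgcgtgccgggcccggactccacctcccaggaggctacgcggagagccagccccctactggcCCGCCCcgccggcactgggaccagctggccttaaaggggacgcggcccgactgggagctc
Usp40, chr1:88008552-88008801, minus strand: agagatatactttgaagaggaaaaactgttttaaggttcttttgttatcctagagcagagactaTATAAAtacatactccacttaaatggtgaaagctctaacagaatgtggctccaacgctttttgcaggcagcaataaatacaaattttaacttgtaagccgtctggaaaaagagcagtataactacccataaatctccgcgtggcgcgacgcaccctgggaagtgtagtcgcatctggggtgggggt
Usp13, chr3:32817376-32817545, plus strand: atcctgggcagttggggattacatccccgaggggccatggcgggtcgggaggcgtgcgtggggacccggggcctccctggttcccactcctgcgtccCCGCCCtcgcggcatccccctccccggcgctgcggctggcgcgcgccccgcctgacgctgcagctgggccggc

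The window of Usp12 held 4 GC boxes, that of Usp35 held 2 and that of Usp13 held 1. That of Usp40 held 0 GC boxes and 1 match to TATAAA, which lay nearer the far end of the window than the start. These are matches of letters, and whether they act was not tested. CCAAT and TAATTA were searched on both strands and had no match in these windows. GC content was 74.5% for Usp12, 76.0% for Usp35, 77.1% for Usp13 and 42.0% for Usp40. Over 250 bases, GGGCGG occurred in 60.4% of 101 promoters of 86 members and in 32.7% of all 32851 promoters. TATAAA occurred in 8.9% and 12.4%, CCAAT in 27.7% and 33.8%, TAATTA in 2.0% and 4.8% and the E-box CANNTG in 53.5% and 66.2%. The median GC content was 64.0% for members' promoters and 52.4% for all. GC boxes stood upstream of genes that fell and of the gene that rose.

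Usp12, a deubiquitinase activated by the cofactors Wdr48 and Wdr20, lies at chr5:146734809-146795006 on the minus strand in build GRCm38. It measured 68.1, 39.1 and 65.5 CPM at PND 13, 72.8, 37.2 and 62.4 CPM at PND 16 small, 26.8, 27.4 and 22.3 CPM at PND 16 large and 21.6, 18.9 and 25.2 CPM at PND 40. Every competent pool was below every non-competent pool, and replicate 2 was the lowest pool of both non-competent cohorts. The level was 2.43-fold lower in competent oocytes (log2 -1.28 ± 0.17, adjusted p = 0.00013).

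Usp35, a deubiquitinase studied on mitochondria, lies at chr7:97309380-97332020 on the minus strand. Its pools held 55.6, 45.6 and 60.5 CPM at PND 13, 68.7, 43.3 and 51.8 CPM at PND 16 small, 22.5, 23.9 and 32.3 CPM at PND 16 large and 16.6, 19.8 and 20.5 CPM at PND 40. The competence groups did not overlap, and the level was 2.401-fold lower (log2 -1.26 ± 0.15, adjusted p = 6.58e-05).

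Otud7b, also called Cezanne, removes K11-linked chains, the kind built with the APC/C, and lies at chr3:96104527-96161129 on the plus strand. Its pools held 71.02, 58.5 and 66.4 CPM at PND 13, 62.8, 56.2 and 74.1 CPM at PND 16 small, 35.8, 40.3 and 41.96 CPM at PND 16 large and 28.1, 24.3 and 22.3 CPM at PND 40. The non-competent pools, PND 16 large and PND 40 formed 3 levels without overlap. The level was 2.02-fold lower in competent oocytes (log2 -1.01 ± 0.15, adjusted p = 0.000277) and was also called lower at PND 40 than at PND 16 large (log2 -0.66 ± 0.13, adjusted p = 0.00918). Leaving out replicate 3 of PND 40 ended this last call, and its adjusted p was 7.21e-05 to 0.0509 over the alternatives.

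Of the conjugating enzymes called, Ube2q2 lies at chr9:55148854-55207529 on the plus strand, Ube2r2 at chr4:41135743-41193380 on the plus strand and Ube2v2 at chr16:15552077-15595773 on the minus strand. Ube2q2 measured 63.4, 63.2 and 69.8 CPM at PND 13, 73.4, 52.9 and 60.6 CPM at PND 16 small, 38.8, 37.3 and 44.03 CPM at PND 16 large and 29.4, 37.8 and 29.4 CPM at PND 40. All competent pools were below all non-competent pools, with a 1.77-fold fall (log2 -0.82 ± 0.11, adjusted p = 0.000138). Ube2r2, an E2 that works with cullin-RING ligases, was at 13.04, 13.5 and 15.8 CPM at PND 13, 11.5, 10.6 and 16.4 CPM at PND 16 small, 7.98, 7.06 and 6.21 CPM at PND 16 large and 7.64, 8.48 and 8.19 CPM at PND 40. It did not overlap between the groups either and fell 1.77-fold (log2 -0.83 ± 0.14, adjusted p = 0.000609).

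Ube2v2, a variant without an active site that pairs with Ube2n to build K63-linked chains, was a low gene with 1.58, 1.25 and 2.17 CPM at PND 13, 1.46, 1.99 and 1.25 CPM at PND 16 small, 0.982, 0.552 and 0.398 CPM at PND 16 large and 0.601, 0.398 and 0.221 CPM at PND 40. The groups did not overlap (log2 -1.62 ± 0.37, adjusted p = 0.00455). Its partner Ube2n stayed between 8.999 and 10.97 CPM in all 12 pools (log2 0.04 ± 0.11, adjusted p = 0.828). The other variant, Ube2v1, gave -0.21 ± 0.37 (adjusted p = 0.7), and it shares exon bases with the gene model Gm20431 on its strand, so reads may be split.

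Usp40, at chr1:87945119-88008551 on the minus strand, measured 6.88, 3.52 and 6.22 CPM at PND 13, 5.69, 6.73 and 8.25 CPM at PND 16 small, 3.97, 3.83 and 3.94 CPM at PND 16 large and 3.002, 3.504 and 3.197 CPM at PND 40. Replicate 2 of PND 13 lay within the competent range, so the groups overlapped, and the fall was 1.74-fold (log2 -0.80 ± 0.20, adjusted p = 0.00732). Usp17lb (-1.50 ± 0.55, adjusted p = 0.0497) and Usp17lc (-1.96 ± 0.70, adjusted p = 0.0463) were also called lower but did not exceed 1.15 CPM in any pool, and their groups overlapped. They belong to a family of near-identical genes whose reads cannot be assigned with certainty. Leaving out 1 pool ended the call in 11 of 12 fits for Usp17lb, all but that without replicate 1 of PND 16 small. It did so in 10 of 12 fits for Usp17lc, the exceptions being replicate 1 of PND 16 small and replicate 3 of PND 16 large. Over the alternatives their adjusted p was 0.0282 to 0.499 and 0.00785 to 0.367.

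The member called higher in competent oocytes was Usp13, a relative of Usp5 that takes part in degradation at the endoplasmic reticulum and lies at chr3:32817546-32938071 on the plus strand. Its pools held 5.49, 7.23 and 5.65 CPM at PND 13, 2.92, 3.79 and 1.602 CPM at PND 16 small, 7.32, 9.47 and 7.33 CPM at PND 16 large and 8.88, 8.92 and 9.41 CPM at PND 40. All competent pools were above all non-competent pools, by a narrow margin over PND 13 and a wide one over PND 16 small. The rise was 1.91-fold between the competence groups (log2 0.94 ± 0.28, adjusted p = 0.0191). Against PND 16 small it was 3.25-fold at PND 40 (log2 1.70 ± 0.27, adjusted p = 0.000574) and 2.88-fold at PND 16 large (log2 1.53 ± 0.27, adjusted p = 0.00433). Against PND 13 the test was not passed at PND 40 (log2 0.57 ± 0.26, adjusted p = 0.113) or at PND 16 large (log2 0.39 ± 0.26, adjusted p = 0.292).

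By summed level, 3 of the 6 non-competent pools held the most granulosa marker RNA. The other non-competent pools had sums of 401, 446 and 512 CPM, close to those of the competent pools, but Serpine2 is a large part of each sum. Inha was at 2.34 CPM in replicate 2 of PND 13 and 4.42 CPM in replicate 1 of PND 16 small, below all competent pools (11.4 to 20.7 CPM). In replicate 3 of PND 16 small it was at 16.6 CPM. Leaving out pools by their sums thus did not match the groups for granulosa RNA. Without the 3 pools with the highest sums 5 members were called in place of 10, all lower, while calls over all genes went from 2087 to 1597. They were Usp12 (-1.29 on the log2 scale), Usp35 (-1.29), Otud7b (-1.01), Ube2q2 (-0.86) and Ube2r2 (-0.85). With 3 pools left against 6, Usp13 gave 1.11 (adjusted p = 0.0533), Ube2v2 gave -1.32 (adjusted p = 0.0715) and Usp40 gave -0.69 (adjusted p = 0.0809). Over all alternatives the adjusted p was 0.000787 to 0.0533 for Usp13, 0.000198 to 0.0715 for Ube2v2 and 0.000937 to 0.0809 for Usp40. With the granulosa marker level as a covariate 8 members were called, all of the 10 but Usp17lb and Usp17lc.

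**Figure D3:**
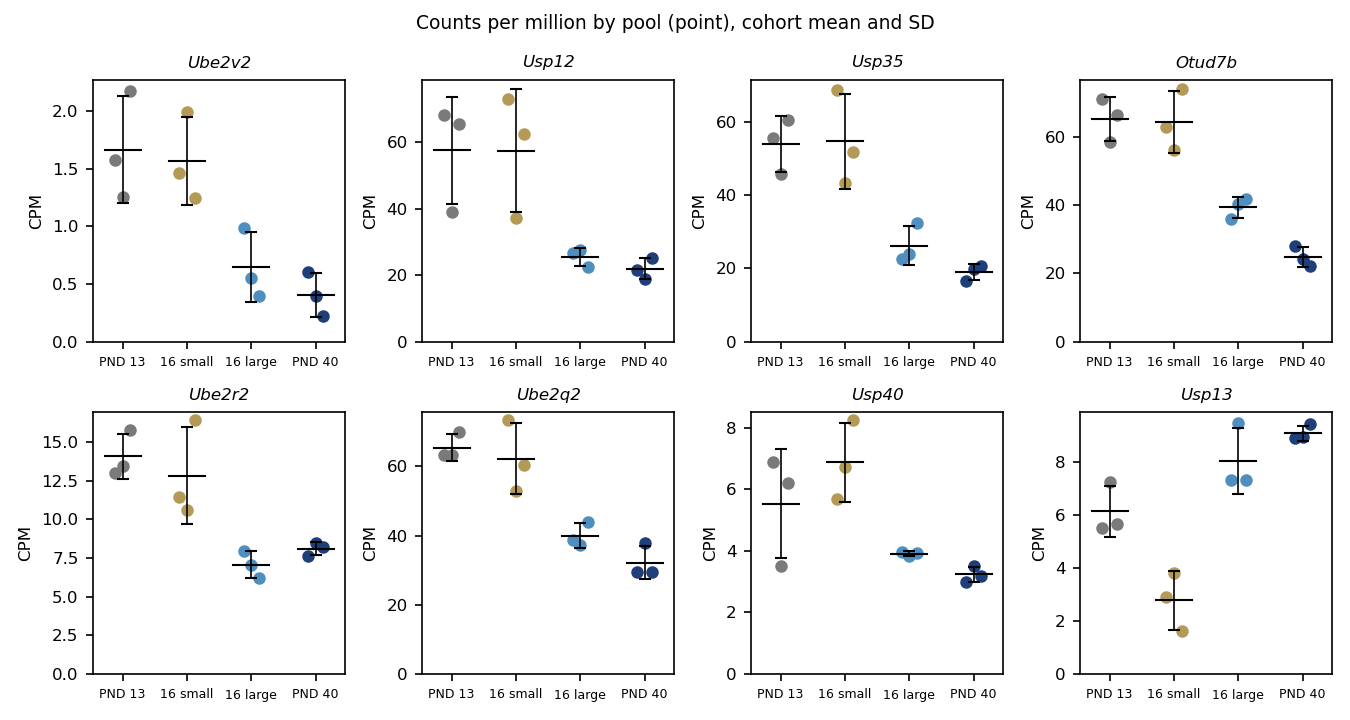
CPM of each pool (points) by cohort for the 8 members called in the comparison of competence with a mean of at least 1 CPM, where lines and bars are the mean and SD of 3 pools and each axis starts at 0. Both competent cohorts have lower means than both non-competent cohorts in every panel but that of Usp13, where PND 16 small lies lowest.

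The other E2 enzymes are given by their roles. Of the RAD6 pair, Ube2a gave -0.06 ± 0.07 (adjusted p = 0.512) and Ube2b gave 0.16 ± 0.08 (adjusted p = 0.115) on the log2 scale. Of the E2 enzymes of the APC/C, Ube2c, which starts chains, gave -0.32 ± 0.13 (adjusted p = 0.063), and Ube2s, which extends them, gave 0.45 ± 0.15 (adjusted p = 0.0326), under 1.5-fold. Ube2s was at 6.47 to 12.4 CPM (median 10.5 CPM) in non-competent and 13.04 to 14.6 CPM (median 14.2 CPM) in competent pools, without overlap. Ube2t, the E2 of the Fanconi anaemia pathway, was at 71.7 to 83.97 CPM (median 78.8 CPM) in non-competent and 93.2 to 108 CPM (median 103 CPM) in competent pools, also without overlap. Ube2m, an E2 for Nedd8, was at 21.8 to 27.4 CPM (median 24.2 CPM) in non-competent and 15.1 to 21.7 CPM (median 18.8 CPM) in competent pools (log2 -0.39 ± 0.10, adjusted p = 0.00923), which is under 1.5-fold.

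Among deubiquitinases with well known roles, Usp14 (-0.14 ± 0.08, adjusted p = 0.187) and Uchl5 (0.35 ± 0.12, adjusted p = 0.0399) act at the proteasome. Usp1, which acts on Fancd2 and PCNA, gave 0.14 ± 0.08 (adjusted p = 0.19), and Usp16, which acts on histone H2A, gave -0.0023 ± 0.10 (adjusted p = 0.989). Usp44, a regulator of the spindle checkpoint, stayed between 0.515 and 2.25 CPM (log2 0.39 ± 0.36, adjusted p = 0.447). Uchl3 (0.26 ± 0.11, adjusted p = 0.088) and Otub1 (0.03 ± 0.05, adjusted p = 0.682), which also inhibits Ube2n, did not pass the test. Otud6b (-0.31 ± 0.09, adjusted p = 0.0194) and Uchl5 passed the adjusted p but were under 1.5-fold.

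Several members passed the adjusted p at under 1.5-fold with groups that did not overlap, and the following were chosen after their values were seen. Usp10 (0.39 ± 0.07, adjusted p = 0.00115) and Ube2h (0.38 ± 0.06, adjusted p = 0.000544) were higher in all competent pools. Usp36 (-0.44 ± 0.08, adjusted p = 0.00139), Usp42 (-0.44 ± 0.07, adjusted p = 0.000468) and Usp22 (-0.49 ± 0.10, adjusted p = 0.00263), the deubiquitinase of the SAGA complex, were lower in all competent pools.

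The pairwise comparisons share pools with each other and with the comparison of competence, and each is given by its own values. With 3 pools against 3, CPM without overlap was common. For PND 40 and PND 16 large against PND 13, it held for 66 and 53 of 99 members, against 50.8% and 45.5% of all genes. For PND 40 and PND 16 large against PND 16 small, it held for 59 and 45 (43.9% and 31.5%). For PND 40 against PND 16 large it held for 42 (39.3%), and for PND 16 small against PND 13 for 18 (18.1%). Comparing PND 40 with PND 13, 18 of 99 members were called, 4 higher and 14 lower, against 18.9% of all genes, 6.31% higher and 12.6% lower. The falls of Usp40 (1.71-fold), Ube2r2 (1.74-fold), Ube2q2 (2.03-fold), Otud7b (2.62-fold), Usp12 (2.63-fold), Usp35 (2.84-fold) and Ube2v2 (4.08-fold) were among them. Otud1 (1.67-fold), Ube2d1 (1.67-fold), Ube2e2 (1.63-fold), Usp29 (1.55-fold) and Usp22 (1.55-fold) fell too, as did the sparse Usp17lc and Usp17le. Of these, Otud1, Ube2d1, Usp29, Usp22 and Usp17lc, and Usp50, were named here after their values were seen. Replicates 1 and 3 of PND 13 are pools with high granulosa marker sums, and the part of that RNA in this comparison was not tested.

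Usp17le held 4.92, 1.52 and 1.39 CPM at PND 13 and 0, 0.1195 and 0.808 CPM at PND 40. The groups did not overlap (log2 -3.02 ± 0.95, adjusted p = 0.0285). Leaving out replicate 1 of PND 13, or replicate 1 or 2 of PND 40, ended the call, as did a fit of only the pools compared, with an adjusted p of 0.00283 to 0.122 over the alternatives.

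Of the 4 members higher at PND 40 than at PND 13, Usp50 did not exceed 0.686 CPM in any pool. Ube2cbp rose from 6.16, 7.78 and 7.61 CPM to 11.7, 12.1 and 13.9 CPM, 1.75-fold (log2 0.81 ± 0.17, adjusted p = 0.00351). Ube2d2a, an E2 that works with many ligases, rose from 86.2, 80.4 and 73.9 CPM to 129.7, 119 and 115 CPM, 1.52-fold (log2 0.60 ± 0.08, adjusted p = 0.000201). Usp49, which acts on histone H2B, rose from 87.9, 86.4 and 79.8 CPM to 122, 129 and 132 CPM, 1.51-fold (log2 0.59 ± 0.07, adjusted p = 7e-05). None of these groups overlapped, as was so for 50.8% of all genes, and Ube2d2a and Usp49 lay at the 1.5-fold limit. Ube2d2a lost the call without replicate 2 or 3 of PND 13 or replicate 1 of PND 40, and in 3 of 8 other alternatives (log2 0.53 to 0.66 over all of them). Usp49 lost it without replicate 2 or 3 of PND 13 or replicate 3 of PND 40, and in 6 of 8 other alternatives, DESeq2 and limma among them (log2 0.52 to 0.63). Usp49 shares exon bases with the gene model Gm20517 on its strand and Ube2d2a with AC141471.2, so reads may be split.

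Several calls between PND 40 and PND 13 ended when 1 pool was left out, here with the adjusted p over all alternatives. That of Usp40 ended in 5 of 6 such fits, all but that without replicate 2 of PND 13, and also with limma, with the replicate block and with only the pools compared (0.00527 to 0.148). Ube2e2 lost its call without replicate 1 of PND 13 or any 1 pool of PND 40 (0.00509 to 0.0778). Ube2d1 lost it without replicate 3 of PND 13 or replicate 2 or 3 of PND 40 (0.0111 to 0.118). The sparse Usp50 lost it without any 1 of the 6 pools, with no filter on low counts and with the replicate block (0.0167 to 0.112). Usp22 was under 1.5-fold without replicate 3 of either cohort (log2 -0.78 to -0.52), as was Usp29 without replicate 1 of PND 13 (log2 -0.74 to -0.47).

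Comparing PND 16 large with PND 13, 9 members were called, 1 higher and 8 lower, against 13.3% of all genes, 3.52% higher and 9.8% lower. Ube2cbp rose 1.61-fold (log2 0.68 ± 0.17, adjusted p = 0.0123), a call that ended without replicate 1 of PND 16 large, with an adjusted p of 0.00125 to 0.0665 over the alternatives. Usp12 fell 2.26-fold, Usp35 2.06-fold, Ube2r2 1.99-fold and Ube2j1 1.70-fold. Otud7b, Ube2q2, Ube2q1 and Otud1, named after their values were seen, fell 1.66-fold, 1.64-fold, 1.55-fold and 1.54-fold. The call of Otud1 ended without replicate 2 or 3 of PND 13 or replicate 1 or 3 of PND 16 large (adjusted p of 0.00571 to 0.102 over the alternatives). Ube2q1 was under 1.5-fold without replicate 2 of PND 16 large (log2 -0.73 to -0.57 over the alternatives).

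Ube2j1, an E2 anchored in the membrane of the endoplasmic reticulum, was lowest at PND 16 large. It measured 37.1, 33.96 and 37.99 CPM at PND 13, 33.8, 37.7 and 40.2 CPM at PND 16 small, 19.6, 20.7 and 23.8 CPM at PND 16 large and 25.6, 30.9 and 30.98 CPM at PND 40. No pool of PND 16 large overlapped another cohort, and the level was below that of PND 13 (log2 -0.77 ± 0.12, adjusted p = 0.000911) and of PND 16 small (log2 -0.80 ± 0.12, adjusted p = 0.00241). The higher level at PND 40 than at PND 16 large was under 1.5-fold (log2 0.45 ± 0.12, adjusted p = 0.042).

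Within PND 16, comparing large with small mice of 1 age, 7 members were called, 1 higher and 6 lower, against 6.19% of all genes, 1.43% higher and 4.76% lower. Usp13 rose 2.88-fold. Usp12 fell 2.25-fold, Usp35 2.08-fold, Ube2r2 1.81-fold, Ube2j1 1.74-fold, Otud7b 1.64-fold and Ube2q2 1.56-fold. The call of Usp12 (adjusted p = 0.0132) ended without replicate 1 of PND 16 large, with an adjusted p of 5.45e-05 to 0.0563 over the alternatives. That of Ube2r2 (adjusted p = 0.0119) ended when the other cohorts were left out of the model (0.000553 to 0.0637 over the alternatives). Ube2q2 lost its call without replicate 1 of PND 16 small, where it was under 1.5-fold, or replicate 1 or 2 of PND 16 large, with an adjusted p of 0.000227 to 0.0593 and a log2 value of -0.74 to -0.50 over the alternatives.

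Comparing PND 40 with PND 16 small, 12 members were called, 2 higher and 10 lower, against 17.2% of all genes, 6.89% higher and 10.3% lower. Usp13 and Usp21, which acts on histone H2A, rose. Usp21 went from 52.9, 54.3 and 45.9 CPM to 80.04, 71.5 and 82.02 CPM without overlap, 1.53-fold (log2 0.61 ± 0.10, adjusted p = 0.00058). Without replicate 3 of either cohort it was under 1.5-fold (log2 0.53 to 0.67 with 1 pool left out). Ube2v2 (log2 -1.94 ± 0.54, adjusted p = 0.0149) lost its call without replicate 2 or 3 of PND 40, with an adjusted p of 0.00275 to 0.0633 over the alternatives. Usp35, Usp12, Otud7b, Usp26, Usp40, Ube2q2, Usp29, Ube2r2 and the sparse Usp17lc fell as well, and Usp29, an imprinted gene expressed from the paternal copy, went from 89.8, 72.6 and 72.9 CPM to 49.4, 43.2 and 41.96 CPM (log2 -0.81 ± 0.14, adjusted p = 0.000886). The call of Ube2r2 ended with only the pools compared and without replicate 3 of PND 16 small or replicate 1 of PND 40 (adjusted p of 0.00444 to 0.0675, log2 -0.78 to -0.45). That of Usp17lc ended with only the pools compared and without replicate 2 of PND 16 small or replicate 1 or 3 of PND 40 (adjusted p of 0.0108 to 0.0803).

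Between the competent cohorts, PND 40 against PND 16 large, 3 members were called, 0 higher and 3 lower, against 3.66% of all genes, 2.34% higher and 1.32% lower. They were Otud7b, Usp26 and Ube2e2. Usp26, an X-linked gene of the germ line, held 9.696, 7.62 and 8.52 CPM at PND 13, 14.8, 10.1 and 20.7 CPM at PND 16 small, 13.9, 11.1 and 12.3 CPM at PND 16 large and 6.73, 6.77 and 5.44 CPM at PND 40. Its PND 40 pools were below all others, and it was called lower than at PND 16 large (log2 -0.97 ± 0.23, adjusted p = 0.0241) and at PND 16 small (log2 -1.26 ± 0.23, adjusted p = 0.00142). Ube2e2 was at 6.01, 5.80 and 6.05 CPM at PND 16 large and 3.69, 3.54 and 3.45 CPM at PND 40, without overlap (log2 -0.74 ± 0.21, adjusted p = 0.0492). Leaving out any 1 of the 6 pools ended the call of Ube2e2 between the competent cohorts, and any but replicate 2 of PND 16 large did so for Usp26. The adjusted p over the alternatives was 0.00841 to 0.155 for Ube2e2 and 0.00147 to 0.106 for Usp26.

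Between the non-competent cohorts, PND 16 small against PND 13, edgeR called 0 members, against 0.373% of all genes, 0.179% higher and 0.194% lower. At an unadjusted p under 0.05 there were 20 of 99 members, against 19.2% of all genes. DESeq2 called 2 members, Usp13 and Usp26, and 361 genes in all. In edgeR Usp13 gave -1.14 ± 0.27 (adjusted p = 0.0583) and Usp26 gave 0.82 ± 0.23 (adjusted p = 0.0803), and the pools did not overlap for either gene.

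**Figure D4:**
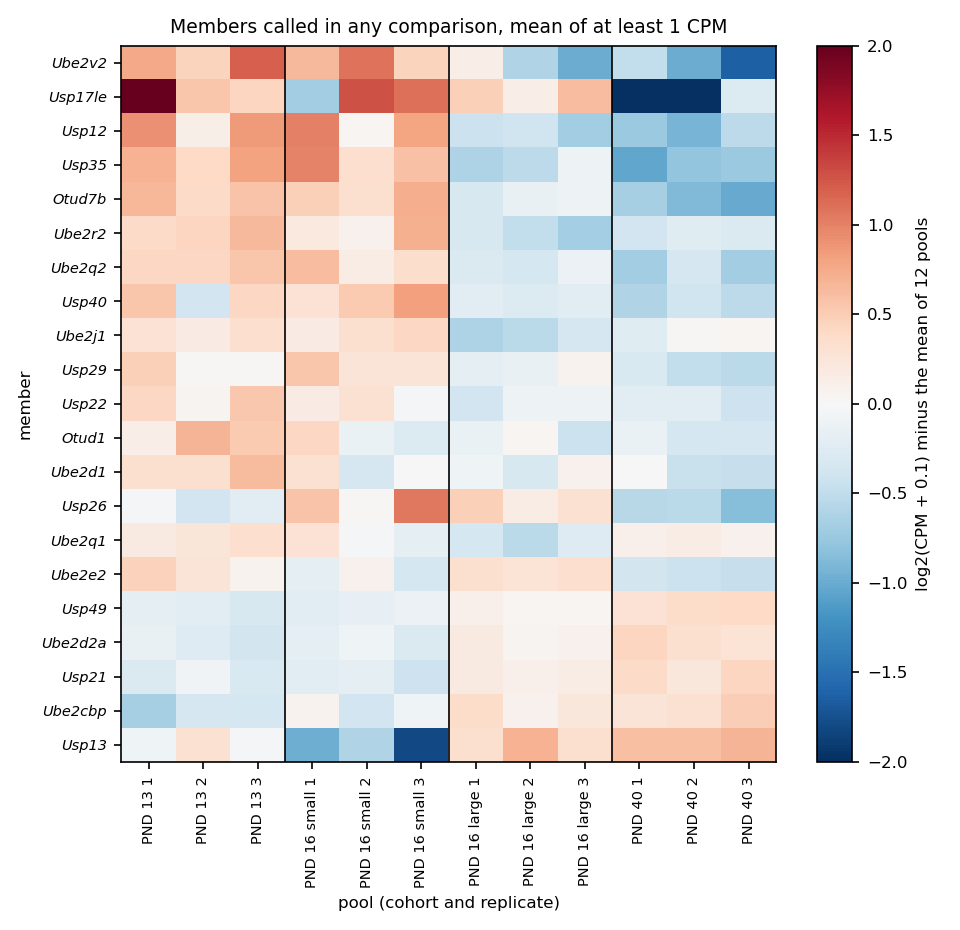
Members called in any comparison with a mean of at least 1 CPM (vertical) in each of the 12 pools (horizontal), where colour is log2(CPM + 0.1) minus the mean of the gene and saturates at 2 in either direction. Usp12, Usp35, Otud7b, Ube2r2 and Ube2q2 are blue in all 6 competent pools, and Usp13 is bluest in the 3 pools of PND 16 small.

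Close relatives were set side by side in families picked after their values were known, and differences between relatives were not tested. Usp46, the nearest relative of Usp12, was at 493 to 715 CPM (median 636 CPM) in non-competent and 706 to 850.3 CPM (median 747 CPM) in competent pools. These groups overlapped, and its log2 fold change was 0.30 ± 0.09 where that of Usp12 was -1.28 ± 0.17. In the Ube2d group Ube2d2a gave 0.45 ± 0.08 (adjusted p = 0.000605), Ube2d3 gave -0.23 ± 0.06 (adjusted p = 0.00924) and Ube2d1 gave -0.44 ± 0.19 (adjusted p = 0.0879), all under 1.5-fold between the competence groups. Ube2q1 measured 28.6, 29.7 and 31.7 CPM at PND 13, 30.8, 24.4 and 21.95 CPM at PND 16 small, 19.6, 17.3 and 21.1 CPM at PND 16 large and 27.1, 27.8 and 26.7 CPM at PND 40. It was lowest at PND 16 large, while the mean of its relative Ube2q2 was lowest at PND 40. Usp27x (-0.24 ± 0.08, adjusted p = 0.0323) and Usp51 (-0.27 ± 0.16, adjusted p = 0.203), relatives of Usp22, were also under 1.5-fold. Usp5 gave 0.19 ± 0.07 (adjusted p = 0.0496) beside 0.94 ± 0.28 for Usp13.

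**Figure D5:**
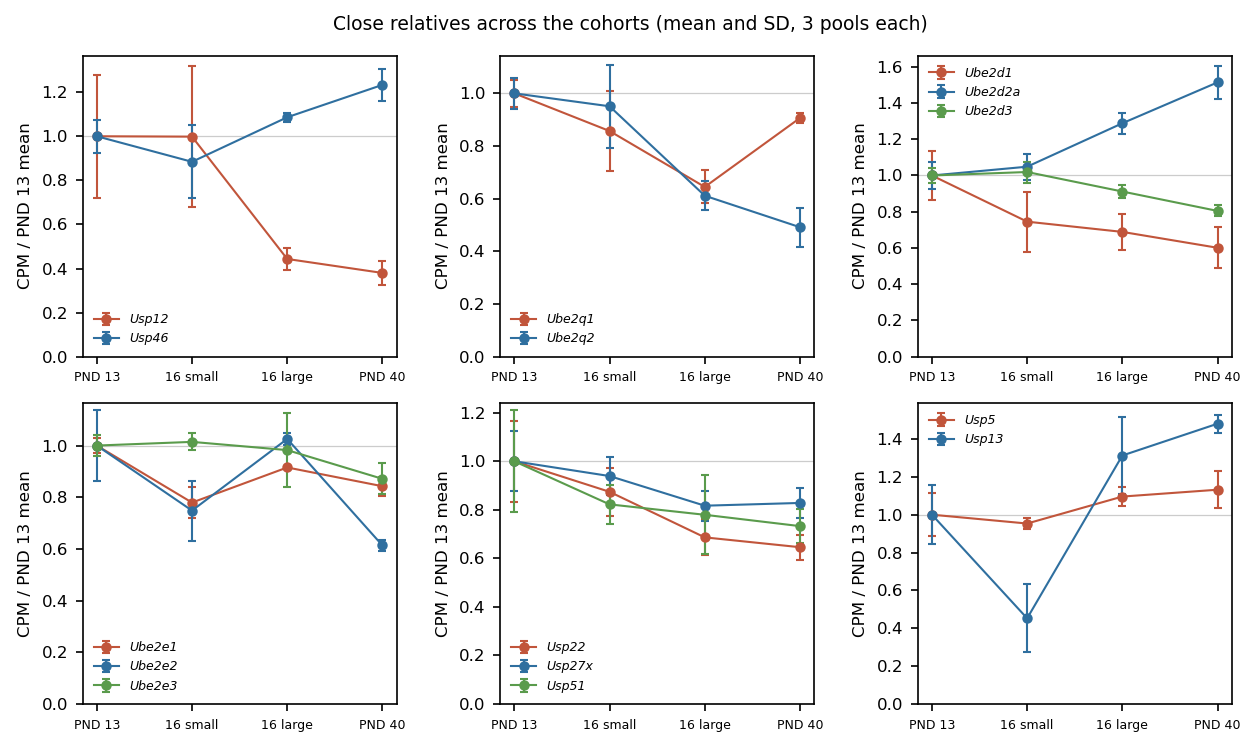
Mean CPM of close relatives in each cohort divided by the mean of the same gene at PND 13, with bars for the SD of 3 pools divided likewise. Usp12 lies below its PND 13 mean in both competent cohorts whereas Usp46 lies above its own, and Usp13 dips at PND 16 small.

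Of the other genes of the pathway, 55 were listed and 53 tested, and 10 were called in the comparison of competence, 3 higher and 7 lower. This was 18.9% of those tested, where 15% of all genes were called, 3.78% higher and 11.2% lower. The subgroups by role are small. None of the 7 E1 subunits or of the 4 ubiquitin genes tested was called. Of 8 E2-like enzymes outside the symbol rule 2 were called, and of 9 genes listed as cofactors 2, both lower. Of 25 genes listed as deubiquitinases outside the rule 6 were called (2 higher, 4 lower). Not all genes of that list act on ubiquitin, and the SUMO protease Uspl1 is among those called. Uba1, the main E1 enzyme, gave 0.09 ± 0.05 (adjusted p = 0.221).

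The genes called from the list of cofactors were Atxn7l3, an adaptor of Usp22 and its relatives, and Atxn7l3b, which is not known as such an adaptor. Atxn7l3b held 41.03, 40.4 and 44.1 CPM at PND 13, 36.4, 32.7 and 27.6 CPM at PND 16 small, 16.7, 18.8 and 20.5 CPM at PND 16 large and 16.99, 18.9 and 16.6 CPM at PND 40, without overlap of the competence groups (log2 -1.04 ± 0.11, adjusted p = 3.62e-05). Atxn7l3 was at 4.33 to 8.92 CPM (median 5.496 CPM) in non-competent and 0.987 to 2.25 CPM (median 1.78 CPM) in competent pools, without overlap (log2 -1.84 ± 0.25, adjusted p = 0.000131). Of the complex that holds Usp22 and Atxn7l3, Atxn7 (-0.06 ± 0.10, adjusted p = 0.696) and Eny2 (0.25 ± 0.11, adjusted p = 0.0904) did not pass the test. Of the cofactors of Usp12 and Usp46, Wdr48 gave 0.11 ± 0.06 (adjusted p = 0.156) and Wdr20 gave 0.33 ± 0.06 (adjusted p = 0.000926), the latter under 1.5-fold.

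Uspl1, a SUMO protease with the USP fold, held 71.98, 80.96 and 74.2 CPM at PND 13, 79.5, 45.03 and 51.4 CPM at PND 16 small, 25.2, 28.5 and 31.2 CPM at PND 16 large and 29.04, 31.3 and 29.8 CPM at PND 40, without overlap (log2 -1.20 ± 0.14, adjusted p = 4.42e-05). Yod1 (-1.68 ± 0.45, adjusted p = 0.0118), Stambpl1 (1.42 ± 0.42, adjusted p = 0.01997) and the autophagy enzyme Atg10 (1.10 ± 0.30, adjusted p = 0.0135) were called with groups that overlapped. All 3 lost their calls without the 3 pools high in granulosa markers, where their log2 fold changes were -1.58, 1.33 and 0.77, and Stambpl1 also without replicate 1 of PND 40. Their adjusted p over the alternatives was 0.00182 to 0.0758, 0.00278 to 0.064 and 0.00219 to 0.0941.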

How the data were processed

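Pools of oocytes were sequenced as rRNA-depleted directional libraries. The authors deposited raw counts per gene and log2 values, the latter being log2 of the count divided by a DESeq2 size factor, plus 1. The submitters' processing notes name FastQC, STAR, HTSeq, DESeq, DESeq2, HOMER and build mm10. Versions, annotation and the strand setting of counting are not given in the sources used here. Counts may thus be affected where exons overlap on opposite strands, as for Uchl1 with Uchl1os, Usp29 with Zim3 and Usp14 with Thoc1. Counts were tested with edgeR 4.0.16 (robust quasi-likelihood, TMM factors, filterByExpr with a minimum count of 10) in R 4.3.3, in 1 model of 4 cohorts for pairs and a model of 2 groups for competence. The code was tested on simulated data. Exon lengths came from GENCODE for GRCm38.

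Members, lists and tests were chosen with earlier results of these data known. Named were members called for competence, up to 4 per direction in each pairwise comparison with a mean of at least 1 CPM, the 10 highest per kb, a fixed list of 20, up to 6 called genes of the wider pathway and members never detected. Alternatives were DESeq2 1.42.0, limma 3.58.1 on the deposited log2 values, RLE or total-count scaling, other filters, only the pools compared, cohort means, a replicate block and leaving out each pool. The granulosa covariate and leaving out 3 pools were chosen after seeing the data. Depth was 17671193 to 27418358 counts per pool, so genes under 1 CPM rest on few counts. The result of 1 member of the fixed list is not reported here.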

Additional observations from a re-analysis of the deposited data

Results flagged for a closer look

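Ube2b, of the RAD6 pair, measured 69.16 CPM in replicate 3 of PND 16 small, against 54.1 to 59.3 CPM in the other 5 non-competent pools, so 1 pool stood far from the rest of its group. Otud6b measured 22.3 CPM in replicate 1 of PND 40, against 16.6 to 17.8 CPM in the other 5 competent pools. These were 2 of 86 tests of groups over 43 members, and chance alone marks about 5% of groups.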

How the results depend on the processing

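Without the 1.5-fold criterion the members called were 40 for competence, 42 for PND 40 against PND 13, 34 for PND 16 large against PND 13, 41 for PND 40 against PND 16 small, 17 for PND 16 large against PND 16 small and 9 for PND 40 against PND 16 large, since more genes can then pass. The shares of all genes were, in the same order, 30.7%, 33.1%, 25.6%, 30.2%, 12.3% and 6.83%. Leaving out the 3 pools with most granulosa marker RNA gave 5 for competence, with fewer samples, and 1597 in place of 2087 over all genes. Leaving out 1 pool gave 0 to 2 members in place of 3 for PND 40 against PND 16 large, with 0 without replicate 3 of PND 40, while calls over all genes went from 510 to between 246 and 305. It gave 0 to 4 in place of 0 for PND 16 small against PND 13, with 4 without replicate 1 and 2 without replicate 2 of PND 16 small, and DESeq2 gave 2. Over all genes these 3 settings gave 817, 45 and 361 calls in place of 52. The cause was not tested. Near 0, Ube2n ranged from -0.0089 to 0.0604 and Usp16 from -0.0717 to 0.0413 on the log2 scale with 1 pool left out. Usp16 was 0.0209 with the granulosa covariate and 0.0178 without those 3 pools, and Otub1 was -0.0012 with total counts alone. Scaling by totals put the median over all genes at -0.132 on the log2 scale for PND 16 large and -0.124 for PND 16 small against PND 13, and the share of higher calls among all calls from 26.4% to 16.8% and from 48.1% to 24%.

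Same-numbered pools did not deviate together (mean correlation -0.052 over 18 pairs, against 0.027 over 36 other pairs), so the numbers were not taken to pair the pools. With a replicate block the members called were 8, 16, 9, 12, 7, 2 and 0, for competence and then, in order, for PND 40 and PND 16 large against PND 13, PND 40 and PND 16 large against PND 16 small, PND 40 against PND 16 large, and PND 16 small against PND 13. Genes under 1 CPM, such as Usp17lb, Usp17lc and Usp50, are limited by depth.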
